A study of Mus musculus with 12 samples.

Results

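The 48 genes described here encode the proteins that bring other proteins into mitochondria, fold, cut or degrade them there, and shape the inner membrane into cristae. They were listed by function, as subunits of the TOM and TIM translocases, small TIM chaperones, the import motor, matrix chaperones and proteases, processing peptidases, prohibitins, and the MICOS and SAM complexes. Of the 48, 47 were matched to a gene of the count files and 46 could be tested, out of 16540 genes tested and 55401 gene IDs in all. The RNA of *Tomm20*, which encodes a presequence receptor of the outer membrane, was not analysed here, and only its promoter enters the counts below. *Tomm6*, a small TOM subunit, had 0 counts on the sense strand in 11 libraries and 1 count in the other, so no level or change is given for it.

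RNA was measured by RNA-seq in whole subcutaneous white adipose tissue (scWAT) of 12 female mice, 3 in each of 4 groups, all 16 weeks old when the treatment began. The genotypes were wild type and *Jmjd1a* HY/HY (HY/HY below), the latter with a CRISPR knock-in of H1122Y that inactivates the H3K9 demethylase JMJD1A in every cell of the body. Both were on a C57BL/6J background and were acclimated, 1 to a cage, at 30°C for 1 week. They were then kept for 1 week more, either at 30°C (thermoneutral) or at 8°C (cold exposed). The HY/HY females came from 1 founder line. The gene that carries the substitution, named *Kdm3a* in the annotation, had group means of 39.9 to 49.3 CPM (counts per 1000000 counts of a library, whose size was scaled by TMM) and did not pass the test between the genotypes at 30°C (adjusted p = 0.753) or at 8°C (adjusted p = 0.604). The substitution changes the protein and cannot be read from such counts, so this is no check of the genotype. The libraries held 13592629 to 26352081 counts on genes, and those at 8°C (13592629 to 17955584) were all smaller than those at 30°C.

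Almost every mitochondrial protein is made in the cytosol from a nuclear gene. Its precursor passes the outer membrane through the TOM complex, and from there either goes to the matrix through the TIM23 translocase, pulled by a motor built on the Hsp70 chaperone HSPA9, or is handed by small TIM chaperones to the TIM22 translocase as a carrier protein of the inner membrane. Peptidases remove the targeting signal, HSP60 and HSP10 fold the product, and proteases clear what is damaged. MICOS holds the necks of the cristae and, with SAM, links the membranes. Beige adipocytes, which form in scWAT in the cold and burn fuel to make heat, are known for many mitochondria with dense cristae.

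Cold raised most of these genes in wild-type mice. A gene was called where edgeR's quasi-likelihood test, adjusted over all genes by the method of Benjamini and Hochberg, gave a p under 0.05 and the fold change was above 1.5 in either direction. By that rule 34 of the 46 were higher at 8°C and 0 were lower, against 10.3% of all genes called higher and 6.84% called lower. All 46 fold changes were above 0 on the log2 scale, from 0.11 for *Grpel2* to 2.13 for *Apoo*, with a median of 0.95 where the median of all genes tested was -0.07. In 43 of the 46 the 3 cold libraries lay above the 3 thermoneutral ones, as in 20.7% of all genes. The 12 that were not called divide into 5 with an adjusted p under 0.05 but a smaller fold (*Tomm7*, *Tomm22*, *Pmpca*, *Immp1l* and *Mtx1*) and 7 with a larger p (*Timm29*, *Timm17b*, *Timm21*, *Grpel2*, *Trap1*, *Yme1l1* and *Chchd6*). In bulk tissue, more cells of a type and more RNA per cell cannot be told apart.

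In HY/HY mice the same temperatures gave smaller differences. None of the 46 was called by edgeR, although 26 had an unadjusted p under 0.05 and 44 had a fold change above 0, with a median of 0.35 on the log2 scale. Of all genes, 0.181% were called higher and 0.0665% lower, so few calls were made anywhere. The smallest adjusted p was 0.0715, for *Grpel1*, and *Grpel1* was called with the replicate number as a block (adjusted p = 0.0261). DESeq2 called 5, namely *Grpel1*, *Timm22*, *Timm9*, *Afg3l2* and *Timm8a1*. Without replicate 3 of the HY/HY mice at 30°C, edgeR called 9 members. In 28 of the 46 the 3 cold libraries still lay above the 3 thermoneutral ones, as in 9.33% of all genes.

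**Figure D1:**
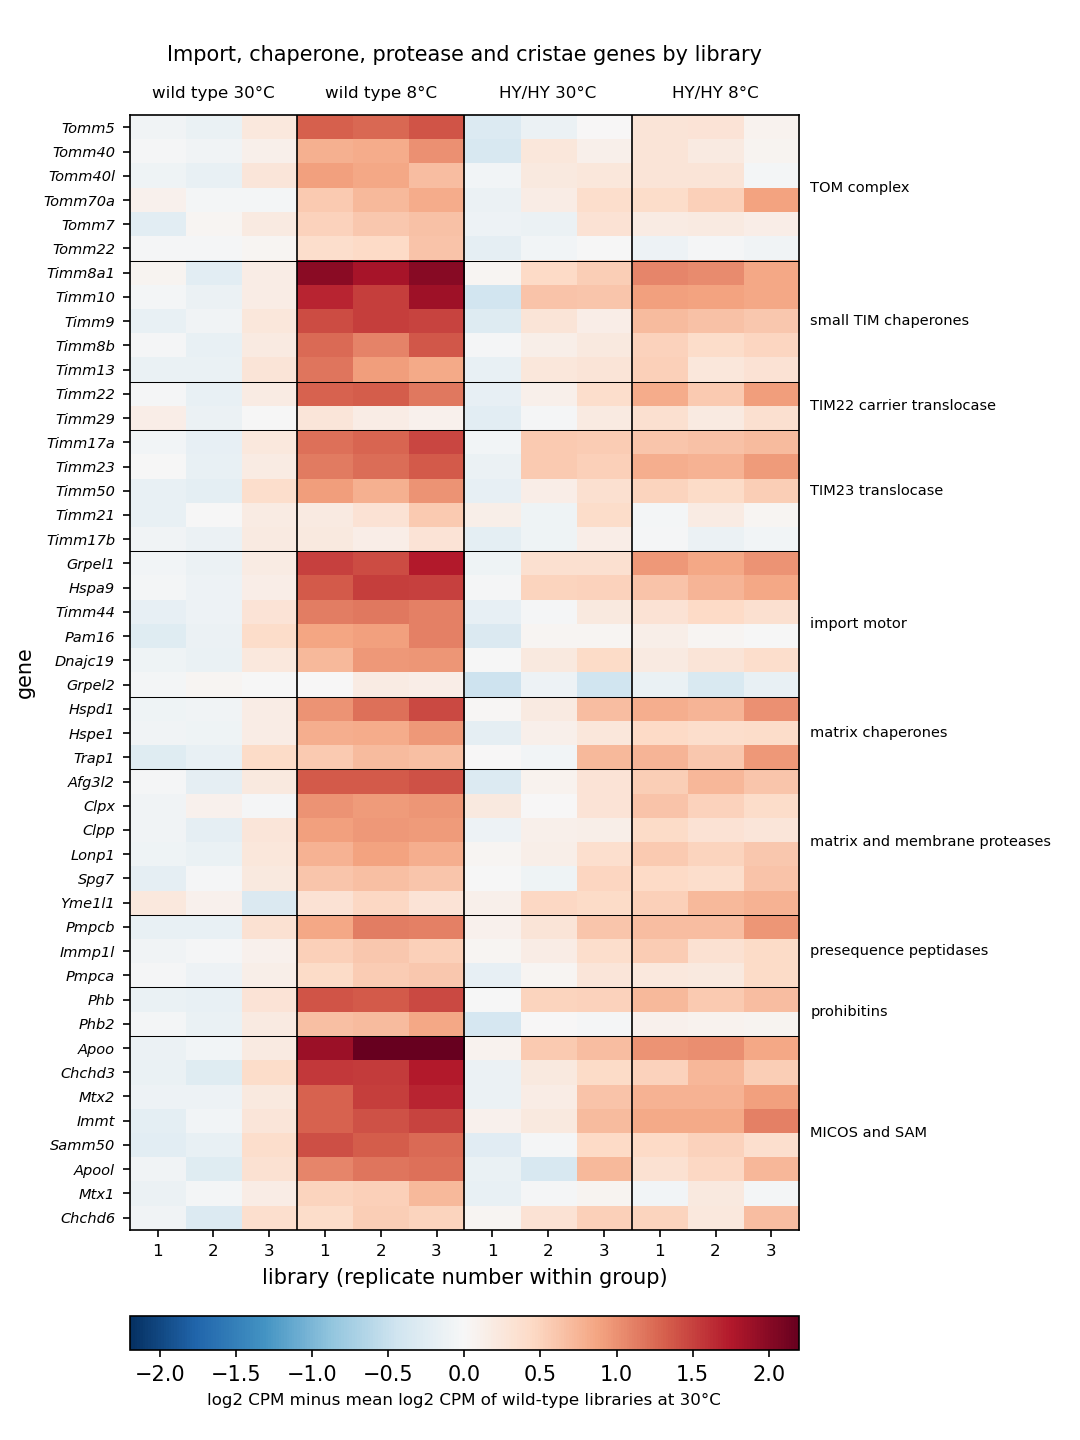
Level of each of the 46 genes tested (rows, grouped by function) in each of the 12 libraries (columns), as log2 CPM minus the mean log2 CPM of the 3 wild-type libraries at 30°C. The wild-type libraries at 8°C are the darkest block, HY/HY libraries at 8°C are paler, and *Grpel2*, *Timm29*, *Timm17b* and *Yme1l1* stay near 0 in wild-type mice.

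At 8°C the genotypes were 0.58 apart at the median on the log2 scale, with HY/HY mice lower in 43 of the 46 genes. Of these, 22 were called lower and 0 higher, against 4.34% and 1.51% of all genes. The 3 HY/HY libraries lay below the 3 wild-type libraries in 36 genes and above them in 1, against 19.0% and 16.4% of all genes. This comparison and the cold response of wild-type mice share the wild-type libraries at 8°C. The count of 22 depended on single libraries. It was 13 when replicate 2 and 8 when replicate 3 of the cold wild-type group was left out, and 9 and 8 when replicates 1 and 3 of the cold HY/HY group were. It was 11 with library totals in place of TMM.

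At 30°C none of the 46 passed the test between the genotypes. With edgeR 0 were called in either direction, against 0.562% of all genes higher and 0.435% lower, 3 had an unadjusted p under 0.05, and DESeq2 also called 0. The smallest adjusted p was 0.166, for *Grpel2*. The median was 0.13 on the log2 scale, and 38 of the 46 were higher in HY/HY mice. Within each thermoneutral group the libraries differed together. Replicate 3 of the wild-type mice was the highest of its group in 41 of the 46 genes, and replicate 1 of the HY/HY mice was the lowest of its group in 40. Without the latter, *Timm10* and *Apoo* were called higher in HY/HY mice. White adipocyte markers also summed highest in replicate 3 of the wild-type mice, at 42297 CPM against 22437 and 27502 CPM in replicates 1 and 2. In replicates 1, 2 and 3 of the HY/HY mice they summed to 29692, 21817 and 48075 CPM. There replicate 3 was highest, as it was in 37 of the 46 genes, and replicate 2 was lowest, not replicate 1. Beige adipocyte markers, listed below, summed to 92.9, 71.3 and 198 CPM in replicates 1, 2 and 3 of the wild-type mice. In the HY/HY mice they summed to 60.8, 101 and 231 CPM, lowest in replicate 1 and highest in replicate 3. The part of adipocyte content in these differences was not tested.

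The difference between the cold responses was tested directly as the interaction, HY/HY response less wild-type response, with an adjusted p under 0.05 as the only limit. It was below 0 in 45 of the 46 genes, with a median of -0.70 on the log2 scale where that of all genes was 0.04. It was called in 11, all lower, against 2.07% of all genes lower and 0.169% higher, and 34 had an unadjusted p under 0.05. The 11 were *Apoo*, *Timm8a1*, *Chchd3*, *Phb*, *Hspa9*, *Timm17a*, *Tomm5*, *Timm9*, *Timm8b*, *Grpel1* and *Clpx*. The interaction uses all 12 libraries and so shares them with every comparison above. DESeq2 called 24. The count was 18 when replicate 3 of the thermoneutral wild-type group was left out and 20, 5 and 4 for replicates 1, 2 and 3 of the thermoneutral HY/HY group. It fell to 1 when any of 6 libraries was left out, replicates 1 or 2 of the wild-type group at 30°C, 1 or 3 of the wild-type group at 8°C, or 1 or 3 of the HY/HY group at 8°C, and 2 without replicate 2 of either cold group. *Apoo* was the 1 gene called in all of these.

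**Figure D2:**
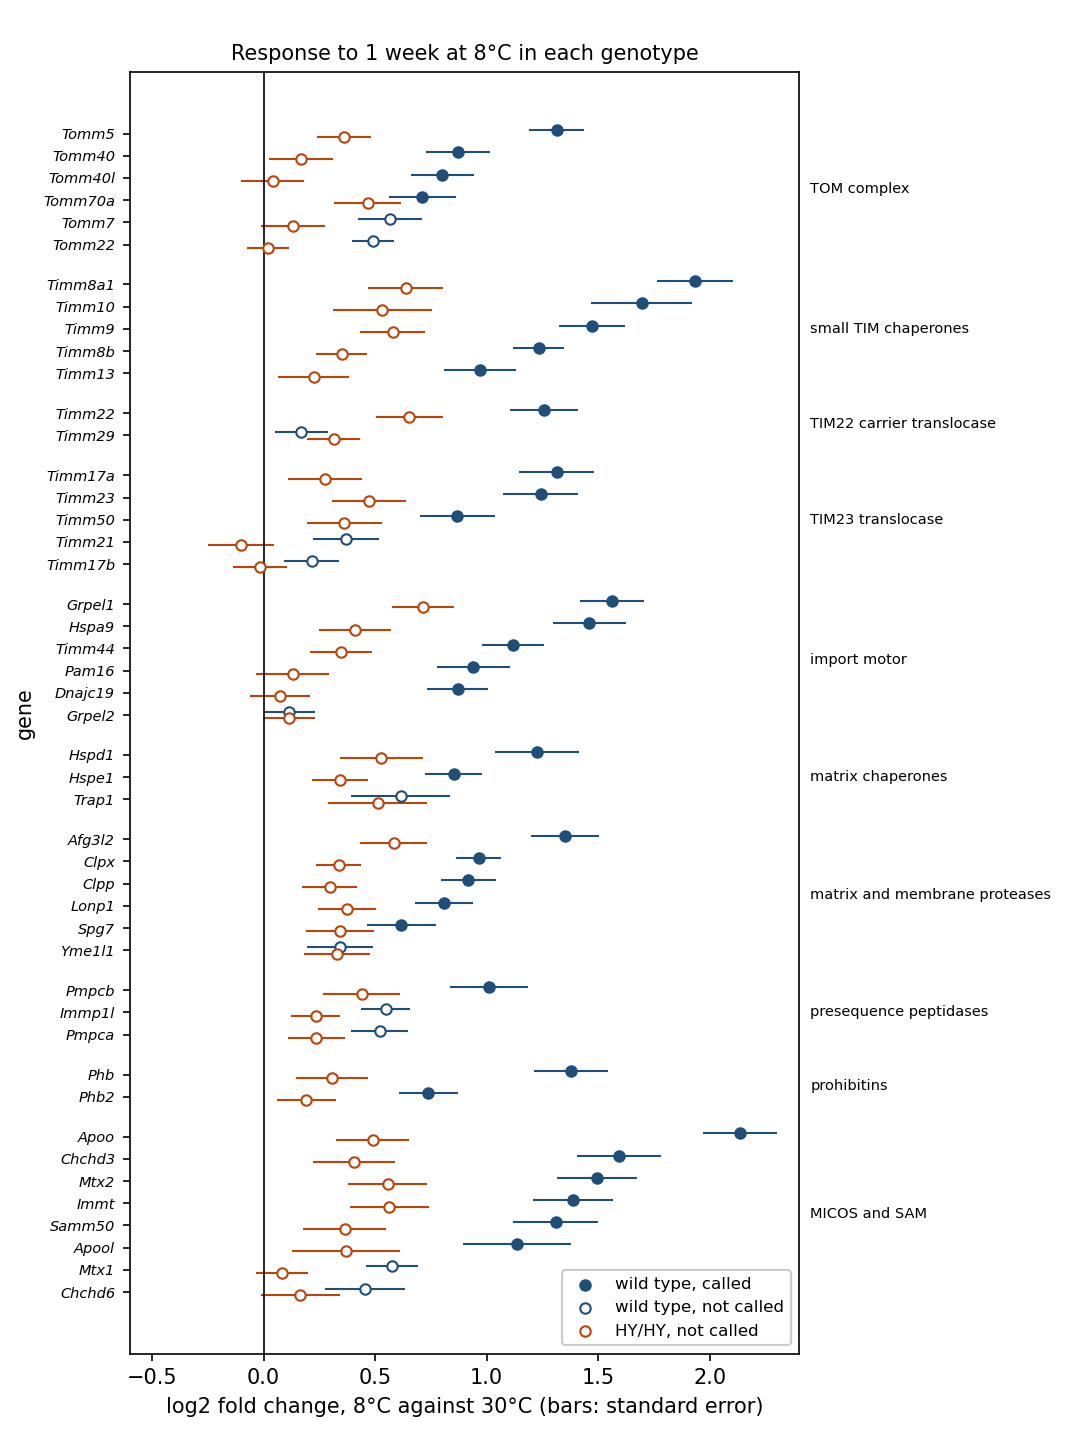
Log2 fold change of 8°C against 30°C for each of the 46 genes in wild-type and HY/HY mice, with standard errors as bars and 3 mice per group. Filled points passed an adjusted p of 0.05 with a fold above 1.5, which holds for 34 genes in wild-type mice and for 0 in HY/HY mice.

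**Figure D3:**
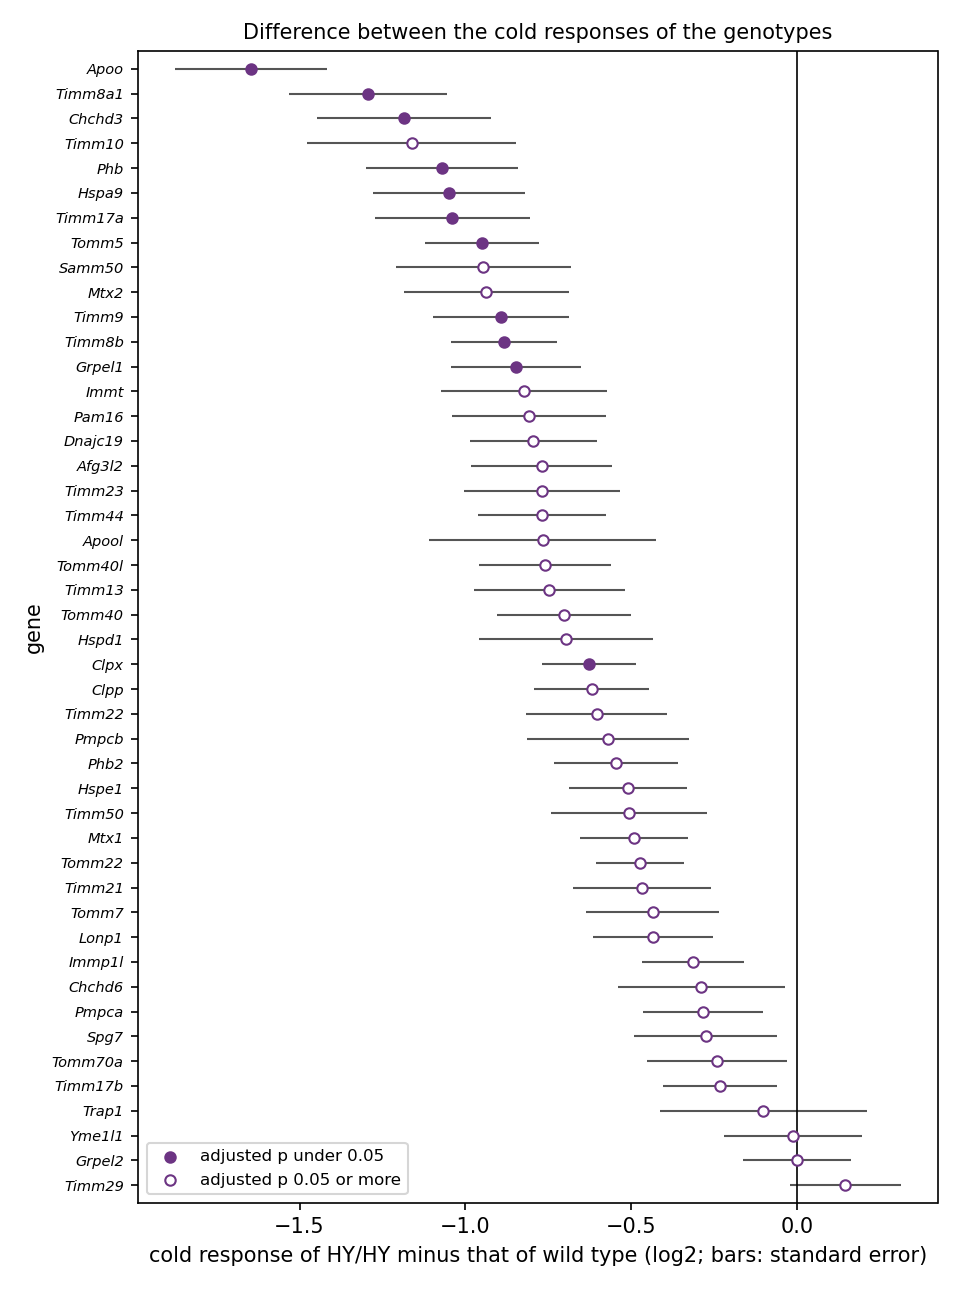
HY/HY response to cold less the wild-type response (log2, with standard errors) for the 46 genes, in order of size. Of these 45 lie below 0, and the 11 filled points have an adjusted p under 0.05, with *Apoo* lowest at -1.65.

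Marker genes of other cells were set beside these results. Markers of beige adipocytes (*Ucp1*, *Cidea*, *Dio2*, *Elovl3*, *Cox8b* and *Cox7a1*) summed to 71.3 to 198 CPM in wild-type and 60.8 to 231 CPM in HY/HY mice at 30°C, and to 8330 to 9240 and 525 to 1665 CPM at 8°C. Of these 6 markers 6 rose with cold in wild-type mice, 3 in HY/HY mice, and 5 were lower in HY/HY mice at 8°C, with none at 0 in every library. White adipocyte markers (*Adipoq*, *Plin1*, *Fabp4*, *Lep*, *Retn*, *Cfd* and *Lipe*) summed to 28731 to 35348 CPM in wild-type and 35051 to 45876 CPM in HY/HY mice at 8°C, and to 22437 to 42297 and 21817 to 48075 CPM at 30°C. Of these 7 markers, 2 fell with cold in wild-type mice (*Lep* by 1.38 and *Cfd* by 0.97 on the log2 scale), 0 were called with cold in HY/HY mice, and 2 were higher in HY/HY mice at 8°C (*Lep* by 1.99 and *Retn* by 0.79). Macrophage markers summed to 118 to 133 CPM in wild-type and 204 to 272 CPM in HY/HY mice at 8°C, with 2 of 5 called higher. At 30°C they summed to 156 to 158 and 177 to 313 CPM, also without overlap, with 0 of 5 called. The part of cell content in the results on import genes was not tested. Skeletal muscle markers stood at 1335 CPM in replicate 2 of the wild-type mice at 30°C and at 3.49 to 23.6 CPM elsewhere. Without that library 34 members were called higher by cold in wild-type mice, with a median of 0.88, 21 were lower in HY/HY mice at 8°C, and 1 was called in the interaction. Mammary epithelium markers were highest in wild-type mice at 30°C (2545 to 4304 CPM) and between 644 and 1849 CPM in the other groups. Lymph node markers did not exceed 13.7 CPM in any library.

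Promoters are shown for the genes with the smallest adjusted p in the interaction (*Hspa9* has no entry in the promoter table), and for *Hspe1*, which starts head to head with *Hspd1*. Each window runs from 250 bases before to 50 bases after the start of the gene, 5′ to 3′ on the strand of the gene, from RefSeq on GRCm38.p6. Capitals mark letters that match a motif of a factor known from mitochondrial gene promoters, on either strand: GCGCANGCG for NRF1, CCGGAAG for the ETS family with GABPA, and CAAGGTCA for the ERR receptors. The windows lie at chrX:94366860-94367159 on the plus strand (*Apoo*), chr4:45108064-45108363 on the minus strand (*Tomm5*), chr9:50603651-50603950 on the plus strand (*Timm8b*), chrX:134541621-134541920 on the minus strand (*Timm8a1*), chr11:95666707-95667006 on the plus strand (*Phb*), chr6:33060211-33060510 on the minus strand (*Chchd3*) and chr1:55087898-55088197 on the plus strand (*Hspe1*).
Apoo: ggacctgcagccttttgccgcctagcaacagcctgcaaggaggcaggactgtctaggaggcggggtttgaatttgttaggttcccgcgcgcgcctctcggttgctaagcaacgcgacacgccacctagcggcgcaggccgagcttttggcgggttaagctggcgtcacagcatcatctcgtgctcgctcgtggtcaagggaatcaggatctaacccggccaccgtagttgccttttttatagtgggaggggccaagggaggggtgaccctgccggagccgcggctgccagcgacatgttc
Tomm5: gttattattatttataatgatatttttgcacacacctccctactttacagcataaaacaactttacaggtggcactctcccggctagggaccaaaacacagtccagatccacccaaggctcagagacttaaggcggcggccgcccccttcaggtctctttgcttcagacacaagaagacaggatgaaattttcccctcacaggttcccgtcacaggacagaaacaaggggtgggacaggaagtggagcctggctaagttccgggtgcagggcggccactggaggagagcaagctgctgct
Timm8b: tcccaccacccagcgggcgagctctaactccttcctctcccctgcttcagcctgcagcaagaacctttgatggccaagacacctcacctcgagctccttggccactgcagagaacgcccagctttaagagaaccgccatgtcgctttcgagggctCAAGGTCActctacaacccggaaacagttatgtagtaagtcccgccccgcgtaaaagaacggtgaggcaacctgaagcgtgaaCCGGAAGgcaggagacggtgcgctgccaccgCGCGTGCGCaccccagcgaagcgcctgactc
Timm8a1: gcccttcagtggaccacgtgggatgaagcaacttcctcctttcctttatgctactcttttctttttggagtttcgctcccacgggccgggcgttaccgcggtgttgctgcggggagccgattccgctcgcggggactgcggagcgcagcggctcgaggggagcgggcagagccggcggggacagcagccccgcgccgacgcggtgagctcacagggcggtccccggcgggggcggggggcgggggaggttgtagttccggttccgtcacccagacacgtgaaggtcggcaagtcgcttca
Phb: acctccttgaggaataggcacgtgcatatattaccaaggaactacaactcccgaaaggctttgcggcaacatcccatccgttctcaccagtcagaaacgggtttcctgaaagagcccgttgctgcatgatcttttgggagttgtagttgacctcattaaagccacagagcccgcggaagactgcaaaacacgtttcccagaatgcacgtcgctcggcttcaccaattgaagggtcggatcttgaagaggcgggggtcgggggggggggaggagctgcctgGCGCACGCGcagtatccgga
Chchd3: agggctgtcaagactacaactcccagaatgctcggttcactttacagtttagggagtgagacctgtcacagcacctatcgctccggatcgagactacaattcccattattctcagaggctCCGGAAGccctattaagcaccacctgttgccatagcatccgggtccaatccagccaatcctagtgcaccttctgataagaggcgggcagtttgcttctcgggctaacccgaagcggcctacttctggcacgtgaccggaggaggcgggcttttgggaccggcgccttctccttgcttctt
Hspe1: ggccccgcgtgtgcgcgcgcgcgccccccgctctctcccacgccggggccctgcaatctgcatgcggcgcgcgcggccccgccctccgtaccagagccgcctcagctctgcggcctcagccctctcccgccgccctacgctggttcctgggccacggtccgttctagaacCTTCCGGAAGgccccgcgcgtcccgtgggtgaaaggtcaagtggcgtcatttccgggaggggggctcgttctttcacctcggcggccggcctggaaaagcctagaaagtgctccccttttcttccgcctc
The window of *Timm8b* holds all 3 motifs, ERR at -95, ETS at -12 and NRF1 at 20 from the start, and its start lies 52 bases from the start of *Sdhd*, which runs the other way and encodes a complex II subunit. *Chchd3* has the ETS letters at -130 and *Phb* the NRF1 letters at 31. The shared *Hspd1* and *Hspe1* promoter has overlapping ETS matches on opposite strands at -80 and -77 from the start of *Hspe1*, with a listed start of *Hspd1* 216 bases away. Another listed start of *Hspd1* lies within *Hspe1*, and its window has NRF1 letters at -59 and no ETS letters. *Apoo*, *Tomm5* and *Timm8a1* hold none of these letters in this window.

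Over all members, 42 of the 48 had a promoter in the RefSeq table. The ETS letters were in 18 of them (42.9%), against 9.93% of the promoters of all genes in the table. NRF1 letters with 1 free base were in 9 (21.4%, against 7.03%), and the exact GCGCATGCG, which is part of the same search, was in 2 (4.76%, against 1.95%). ERR letters were in 3 (7.14%, against 1.76%) and the cAMP response element TGACGTCA in 1 (2.38%, against 2.03%). The members' promoters were richer in G and C. With the highest value over the windows of each gene, the median GC content was 59.0% against 53.3% for all genes. The median number of CpG, taken in the same way, was 20.5 against 8. Of the promoters of members called higher by cold in wild-type mice, 41.9% held the ETS letters (13 of 31), and of those tested and not called, 55.6% (5 of 9). For NRF1 letters with 1 free base these were 8 of 31 and 0 of 9, and for the exact letters 2 of 31 and 0 of 9. For ERR they were 1 of 31 and 2 of 9, and for the cAMP response element 0 of 31 and 1 of 9. *Tomm20* and *Tomm6* are in neither set, and these splits were not tested. A start in the opposite direction lay within 1000 bases for 15 of the 42 (35.7%), against 12.2% of all genes.

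In the TOM complex, the entry gate of the outer membrane, 4 of the 6 subunits and receptors tested rose with cold in wild-type mice (median 0.76 on the log2 scale), 3 were lower in HY/HY mice at 8°C and 1 was called in the interaction. *Tomm5*, a small subunit of the pore, stood at 28.1, 26.7 and 34.8 CPM in the 3 wild-type libraries at 30°C and at 74.2, 71.4 and 77.05 CPM at 8°C. In HY/HY mice it stood at 23.98, 27.03 and 29.99 CPM at 30°C and at 35.9, 36.6 and 31.4 CPM at 8°C. The wild-type cold libraries lay far above the other 9, and the cold HY/HY libraries overlapped the range of the thermoneutral wild-type mice. Its log2 fold change was 1.31 ± 0.12 (adjusted p = 4.35e-05) in wild-type mice and 0.36 ± 0.12 (adjusted p = 0.216) in HY/HY mice, and the interaction was -0.95 ± 0.17 (adjusted p = 0.0202). The smallest response to cold in wild-type mice was that of *Tomm22*, the central receptor, at 77.5, 76.8 and 81.05 CPM at 30°C and 103, 106 and 122 CPM at 8°C in wild-type mice. The libraries did not overlap, yet the log2 fold change of 0.49 ± 0.09 (adjusted p = 0.00366) is below 1.5-fold. In HY/HY mice *Tomm22* stood at 68.2, 74.8 and 77.7 CPM at 30°C and 72.5, 76.8 and 74.2 CPM at 8°C, with overlapping libraries, and the genotypes differed by -0.57 ± 0.09 (adjusted p = 0.00543) at 8°C, again under 1.5-fold.

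*Tomm40* encodes the channel itself, and *Tomm40l* a close relative of it. *Tomm40* stood at 59.5, 57.4 and 65.96 CPM in thermoneutral and 105, 108 and 122 CPM in cold wild-type mice, and at 47.4, 72.1 and 65.8 CPM (30°C) and 74.3, 69.95 and 63.7 CPM (8°C) in HY/HY mice. *Tomm40l* stood at 40.7, 38.8 and 52.5 CPM (30°C) and 81.1, 78.6 and 70.1 CPM (8°C) in wild-type mice and at 41.6, 50.8 and 51.6 CPM (30°C) and 52.9, 53.1 and 42.1 CPM (8°C) in HY/HY mice. Both rose in wild-type mice without overlap and stayed within the thermoneutral range or just above it in HY/HY mice. The log2 fold changes with cold in wild-type mice were 0.87 ± 0.14 (adjusted p = 0.00146) for *Tomm40* and 0.80 ± 0.14 (adjusted p = 0.00225) for *Tomm40l*, and the differences between the genotypes at 8°C were -0.68 ± 0.14 (adjusted p = 0.0158) and -0.63 ± 0.14 (adjusted p = 0.0208). Neither passed the interaction test (adjusted p = 0.108 and 0.0795). With both strands counted together, the difference of *Tomm40l* at 8°C lost its call (adjusted p = 0.283). Per kilobase of exon the pair was nearly level, at 14.4 and 13.1 CPM in thermoneutral wild-type mice. *Tomm70a*, the receptor for carrier precursors, rose by 0.71 in wild-type mice (adjusted p = 0.00612), and the genotypes were -0.09 apart at 8°C (adjusted p = 0.775).

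All 5 small TIM chaperones, which ferry hydrophobic precursors across the intermembrane space, rose in wild-type mice (median 1.47), and all 5 were lower in HY/HY mice at 8°C (median -0.82). No other class of more than 2 genes had all its members called in both. The calls at 8°C were kept in all 20 alternatives for *Timm8a1*, *Timm8b* and *Timm9*. They were lost in 9 of the 20 for *Timm10* and in 7 for *Timm13*. *Timm8a1*, at the lowest level per kilobase of the 46 in thermoneutral wild-type mice, stood at 4.08, 3.32 and 4.36 CPM there and at 15.4, 13.7 and 15.7 CPM in the cold. In HY/HY mice it stood at 3.99, 5.30 and 5.67 CPM and 8.22, 8.00 and 6.98 CPM. The cold libraries lay above the thermoneutral ones in both genotypes, with the cold HY/HY libraries between the wild-type groups. The log2 fold change was 1.93 ± 0.17 (adjusted p = 3.48e-05) in wild-type mice and 0.64 ± 0.17 (adjusted p = 0.141) in HY/HY mice, and the interaction -1.30 ± 0.24 (adjusted p = 0.0218).

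*Timm9*, which forms a ring with *Timm10*, stood at 18.3, 19.6 and 24.5 CPM in thermoneutral and 55.6, 59.4 and 57.9 CPM in cold wild-type mice. In HY/HY mice it stood at 16.9, 25.1 and 22.8 CPM (30°C) and 33.5, 32.1 and 31.3 CPM (8°C). It was higher in the cold in every library of both genotypes, and the wild-type cold libraries were highest. The interaction was -0.89 ± 0.21 (adjusted p = 0.0464). *Timm8b*, whose promoter is printed above, stood at 44.4, 40.4 and 51.8 CPM in thermoneutral and 108, 96.8 and 116 CPM in cold wild-type mice, and at 44.7, 49.4 and 52.5 CPM (30°C) and 64.2, 59.7 and 63.00 CPM (8°C) in HY/HY mice. It showed the same order of groups, with an interaction of -0.88 ± 0.16 (adjusted p = 0.0208). *Timm13*, the member with the smallest change of this class, went from 64.8, 64.8 and 87.4 CPM to 162, 135 and 128 CPM in wild-type mice and from 64.2, 85.4 and 87.4 CPM to 103, 85.1 and 88.7 CPM in HY/HY mice. Its libraries overlapped between temperatures in HY/HY mice but not in wild-type mice, with log2 fold changes of 0.22 ± 0.16 (adjusted p = 0.553) and 0.97 ± 0.16 (adjusted p = 0.00154). *Timm10* had a larger interaction than *Timm9* and *Timm8b*, -1.16, but also a larger standard error of 0.31 and did not pass the test (adjusted p = 0.0876).

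Of the 2 subunits of the TIM22 carrier translocase, 1 rose in wild-type mice. *Timm22*, the channel, stood at 19.2, 17.4 and 22.00 CPM in thermoneutral and 47.6, 49.1 and 43.2 CPM in cold wild-type mice, and at 17.2, 20.97 and 25.5 CPM (30°C) and 34.3, 28.9 and 36.9 CPM (8°C) in HY/HY mice. *Timm29*, which links it to the TOM complex, stood at 51.9, 42.9 and 46.7 CPM (30°C) and 56.6, 52.5 and 50.04 CPM (8°C) in wild-type mice and at 40.03, 46.3 and 54.01 CPM (30°C) and 60.3, 54.1 and 59.9 CPM (8°C) in HY/HY mice. *Timm22* was higher in every cold library of its genotype, whereas *Timm29* overlapped between temperatures in wild-type mice and was the 1 member with an interaction above 0. The log2 fold changes in wild-type mice were 1.26 ± 0.15 (adjusted p = 0.000185) and 0.17 ± 0.12 (adjusted p = 0.32). At 8°C the genotypes did not pass the test for either (adjusted p = 0.076 and 0.565).

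In the TIM23 translocase, the path to the matrix, 3 of 5 subunits rose in wild-type mice and the 3 included both parts of its core, *Timm23* (1.24) and *Timm17a* (1.31), together with the receptor *Timm50* (0.87). *Timm17a* and *Timm17b* encode alternative forms of the same subunit. *Timm17a* stood at 59.6, 55.1 and 73.3 CPM in thermoneutral and 145, 151 and 171 CPM in cold wild-type mice. In HY/HY mice it stood at 59.3, 92.4 and 91.5 CPM (30°C) and 95.2, 97.8 and 101 CPM (8°C), a cold group just above its thermoneutral one. *Timm17b* stood at 22.98, 22.1 and 27.9 CPM (30°C) and 28.02, 26.9 and 29.7 CPM (8°C) in wild-type mice and at 20.9, 22.6 and 26.7 CPM (30°C) and 23.8, 22.3 and 23.2 CPM (8°C) in HY/HY mice, with overlap between the temperatures in both. The log2 fold changes in wild-type mice were 1.31 ± 0.17 (adjusted p = 0.000273) and 0.22 ± 0.12 (adjusted p = 0.214), and the interactions -1.04 ± 0.23 (adjusted p = 0.0432) and -0.23 ± 0.17 (adjusted p = 0.566).

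The ratio of *Timm17a* to *Timm17b* within a library, which does not depend on how libraries are scaled, was 2.49 to 2.63 in thermoneutral and 5.17 to 5.77 in cold wild-type mice, and 2.84 to 4.09 and 3.995 to 4.40 in HY/HY mice. The temperatures did not overlap in wild-type mice and overlapped in HY/HY mice. Per kilobase of exon *Timm17a* was already the more abundant form at 30°C, at 39.8 against 9.52 CPM per kilobase in wild-type mice. *Timm21*, which guides TIM23 to the respiratory chain, was not called in any comparison, with log2 fold changes of 0.37 in wild-type mice (adjusted p = 0.0871) and -0.10 in HY/HY mice (adjusted p = 0.795).

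Of the import motor, which pulls the precursor into the matrix, 5 of 6 genes rose in wild-type mice and 5 were lower in HY/HY mice at 8°C. *Hspa9*, the Hsp70 at its heart, had the highest level per kilobase of all 46 genes in wild-type mice at both temperatures. It stood at 439, 419 and 499 CPM in thermoneutral and 1156, 1296 and 1279 CPM in cold wild-type mice, and at 443, 629.7 and 640.1 CPM (30°C) and 700.4, 761 and 812 CPM (8°C) in HY/HY mice. All cold libraries were above the thermoneutral ones of their genotype, and those of wild-type mice stood apart at the top. On the log2 scale the responses were 1.46 ± 0.16 (adjusted p = 0.000117) and 0.41 ± 0.16 (adjusted p = 0.274), and the interaction -1.05 ± 0.23 (adjusted p = 0.0377).

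HSPA9 needs a nucleotide exchange factor, which is encoded by *Grpel1* or *Grpel2*. *Grpel1* stood at 54.4, 52.03 and 64.04 CPM in thermoneutral and 161, 154 and 189 CPM in cold wild-type mice, and at 52.97, 72.2 and 72.1 CPM (30°C) and 109, 102 and 113 CPM (8°C) in HY/HY mice. It had the largest response of the 46 in HY/HY mice, 0.71 ± 0.14 (adjusted p = 0.0715) on the log2 scale against 1.56 ± 0.14 (adjusted p = 4.23e-05) in wild-type mice, and an interaction of -0.85 ± 0.20 (adjusted p = 0.0482). *Grpel2* stood at 24.6, 26.1 and 24.98 CPM (30°C) and 25.4, 28.6 and 27.9 CPM (8°C) in wild-type mice and at 18.4, 23.4 and 18.6 CPM (30°C) and 22.8, 20.1 and 22.6 CPM (8°C) in HY/HY mice. Its libraries overlapped between temperatures in both genotypes, and its log2 fold change of 0.11 ± 0.11 (adjusted p = 0.494) in wild-type mice was the smallest of the 46. The ratio of *Grpel1* to *Grpel2* within a library was 1.99 to 2.56 in thermoneutral and 5.38 to 6.76 in cold wild-type mice, and 2.87 to 3.88 and 4.79 to 5.08 in HY/HY mice. It was higher in every cold library of either genotype. Of the J proteins and their tether, *Timm44* rose by 1.12, *Pam16* by 0.94 and *Dnajc19* by 0.87 in wild-type mice, and all 3 were called lower in HY/HY mice at 8°C (-0.77, -0.91 and -0.59).

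**Figure D4:**
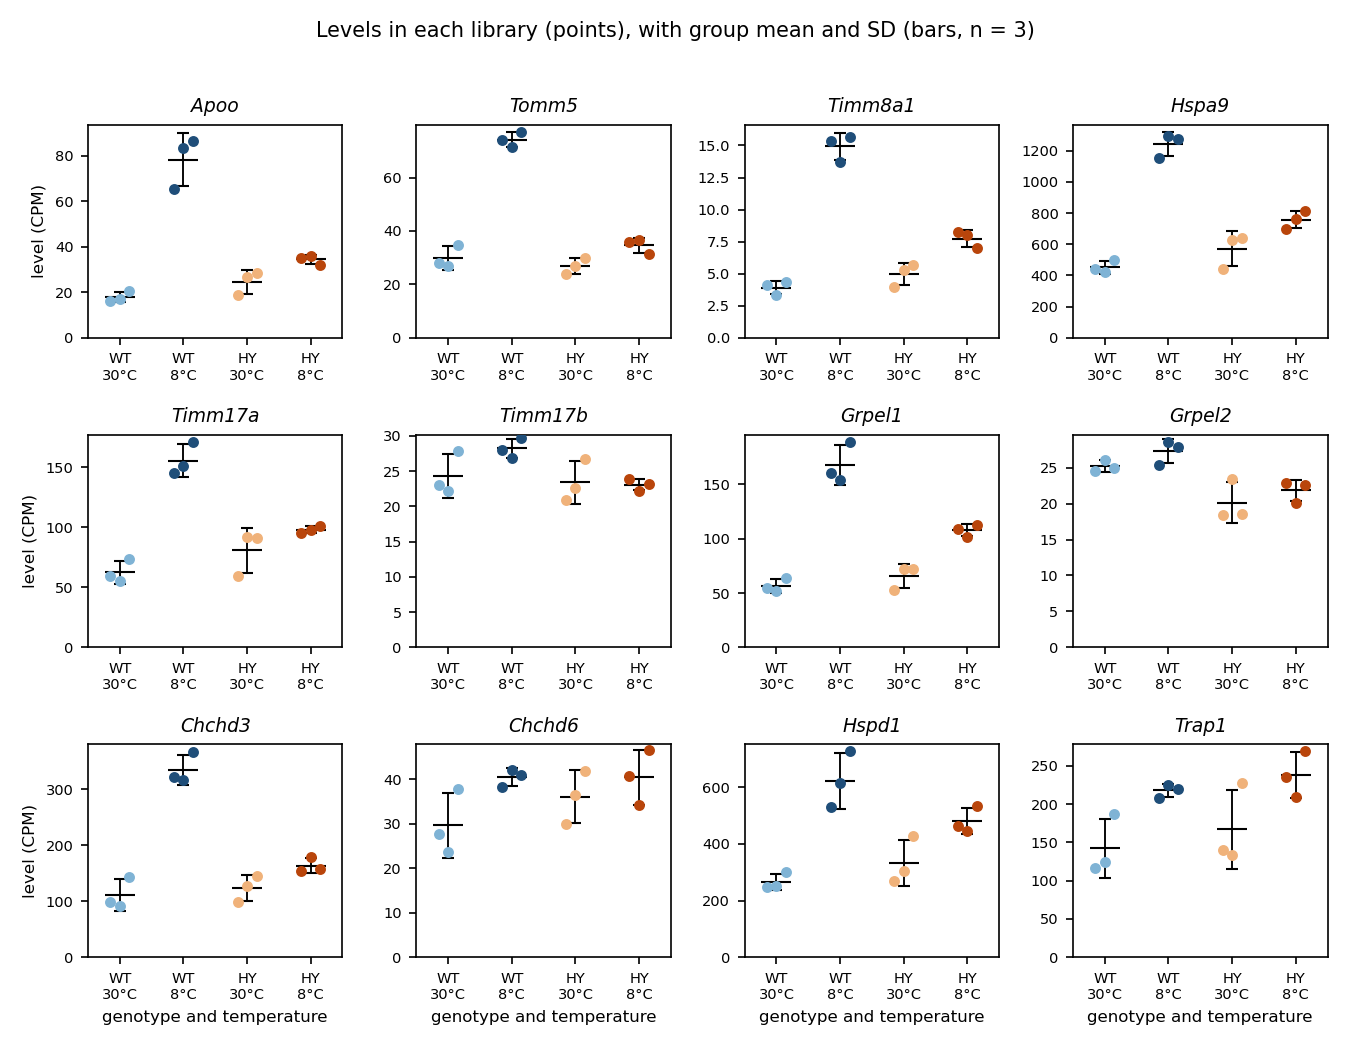
Level (CPM) of 12 members in each library, with group means and SDs (n = 3) as bars and axes that start at 0. *Apoo*, *Tomm5*, *Timm8a1*, *Hspa9*, *Timm17a*, *Grpel1* and *Chchd3* are highest in cold wild-type mice, while *Timm17b* and *Grpel2* overlap between the 2 temperatures in wild-type mice and *Chchd6* separates them narrowly.

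The matrix chaperones HSP60 (*Hspd1*) and HSP10 (*Hspe1*) work as 1 machine and share the promoter printed above. *Hspd1* stood at 249, 252 and 299 CPM in thermoneutral and 529.5, 614 and 727 CPM in cold wild-type mice, and at 271, 303 and 427 CPM (30°C) and 462, 446 and 535 CPM (8°C) in HY/HY mice. *Hspe1* stood at 92.01, 90.5 and 108 CPM (30°C) and 168, 169.5 and 187 CPM (8°C) in wild-type mice and at 83.8, 104 and 115 CPM (30°C) and 130.4, 126 and 127 CPM (8°C) in HY/HY mice. Both were higher in every cold library than in the thermoneutral ones of the same genotype. The log2 fold changes in wild-type mice were 1.23 ± 0.19 (adjusted p = 0.000892) and 0.85 ± 0.13 (adjusted p = 0.00073), and the genotypes at 8°C did not pass the test (adjusted p = 0.259 and 0.0521), nor did the interactions (-0.70 and -0.51). The ratio of *Hspd1* to *Hspe1* within a library was 2.71 to 2.78 in thermoneutral wild-type mice, 3.15 to 3.88 in cold wild-type mice, and 2.90 to 4.20 over the 6 HY/HY libraries, so the pair did not move in a fixed proportion. *Trap1*, the mitochondrial relative of HSP90, stood at 116, 124 and 187 CPM (30°C) and 208, 225 and 220.2 CPM (8°C) in wild-type mice and at 140.4, 133 and 227 CPM (30°C) and 235, 209.7 and 269.6 CPM (8°C) in HY/HY mice. Replicate 3 of each thermoneutral group was high, and the log2 fold change of 0.62 ± 0.22 (adjusted p = 0.063) in wild-type mice did not pass the test.

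Of 6 ATP-dependent proteases and their partners, 5 rose in wild-type mice, 2 were lower in HY/HY mice at 8°C (*Afg3l2* and *Clpp*) and 1 was called in the interaction (*Clpx*). *Afg3l2*, a subunit of the m-AAA protease on the matrix side, stood at 68.8, 60.5 and 81.2 CPM in thermoneutral and 177, 177 and 184 CPM in cold wild-type mice, and at 56.5, 73.3 and 85.7 CPM (30°C) and 101, 115 and 107 CPM (8°C) in HY/HY mice. It was higher in every cold library of either genotype, with log2 fold changes of 1.35 ± 0.15 (adjusted p = 0.000117) and 0.58 ± 0.15 (adjusted p = 0.133). Its partner *Spg7* rose by 0.62 in wild-type mice and differed by -0.14 between the genotypes at 8°C (adjusted p = 0.65). *Clpx*, which unfolds proteins for the protease *Clpp*, stood at 53.7, 60.1 and 55.6 CPM in thermoneutral and 111, 108 and 111 CPM in cold wild-type mice, and at 65.7, 56.6 and 69.2 CPM (30°C) and 86.6, 80.2 and 74.9 CPM (8°C) in HY/HY mice. Its libraries were tight and did not overlap between any cold and thermoneutral group, and the interaction was -0.63 ± 0.14 (adjusted p = 0.0437). *Lonp1*, the main soluble matrix protease, rose by 0.81 in wild-type mice (adjusted p = 0.00118). *Yme1l1*, the i-AAA protease that faces the intermembrane space, stood at 70.3, 63.2 and 47.5 CPM (30°C) and 74.2, 82.1 and 73.2 CPM (8°C) in wild-type mice and at 64.1, 81.7 and 79.99 CPM (30°C) and 85.3, 97.3 and 101 CPM (8°C) in HY/HY mice. It was 1 of 3 members above wild type in HY/HY mice at 8°C and the 1 whose libraries all lay above, with a difference of 0.31 ± 0.15 (adjusted p = 0.246).

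The peptidases that remove targeting signals had the lowest median response of the classes in wild-type mice (0.55), with 1 of 3 called in wild-type mice and 0 in any comparison of the genotypes. *Pmpcb*, the catalytic subunit of the matrix processing peptidase, stood at 71.2, 71.7 and 101 CPM in thermoneutral and 144, 175 and 172 CPM in cold wild-type mice, and at 85.2, 97.1 and 122 CPM (30°C) and 128, 128 and 156 CPM (8°C) in HY/HY mice. Its partner *Pmpca* stood at 89.02, 83.3 and 99.01 CPM (30°C) and 120.2, 134 and 135 CPM (8°C) in wild-type mice and at 79.5, 93.4 and 109 CPM (30°C) and 106, 104 and 121 CPM (8°C) in HY/HY mice. Both were higher in every cold wild-type library, with log2 fold changes of 1.01 ± 0.17 (adjusted p = 0.00189) and 0.52 ± 0.13 (adjusted p = 0.0129), the latter under 1.5-fold. *Immp1l*, an inner membrane peptidase, changed by 0.55 ± 0.11 (adjusted p = 0.00455) on the log2 scale, also under 1.5-fold.

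Prohibitins form rings in the inner membrane that hold m-AAA proteases, and both genes rose in wild-type mice and were lower in HY/HY mice at 8°C. *Phb* stood at 115, 114 and 157 CPM in thermoneutral and 333, 323 and 348 CPM in cold wild-type mice, and at 126, 179 and 181 CPM (30°C) and 209, 190.0 and 203 CPM (8°C) in HY/HY mice. *Phb2* stood at 166, 154 and 195 CPM (30°C) and 271, 278 and 309 CPM (8°C) in wild-type mice and at 132, 172 and 168 CPM (30°C) and 182, 179.7 and 177 CPM (8°C) in HY/HY mice. For both, every cold library of a genotype lay above its thermoneutral ones. In wild-type mice they rose by 1.38 ± 0.16 (adjusted p = 0.000172) and 0.74 ± 0.13 (adjusted p = 0.00244), and the interactions -1.07 ± 0.23 (adjusted p = 0.036) and -0.55 ± 0.19 (adjusted p = 0.185).

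Of the 8 MICOS and SAM genes, which shape the cristae and insert outer membrane proteins, 6 rose in wild-type mice (median 1.35), 4 were lower in HY/HY mice at 8°C and 2 were called in the interaction. *Apoo*, a MICOS subunit whose gene lies on chromosome X, gave the largest response of all 46. It stood at 16.2, 16.96 and 20.4 CPM in thermoneutral and 65.2, 83.5 and 86.4 CPM in cold wild-type mice. In HY/HY mice it stood at 18.8, 26.6 and 28.4 CPM (30°C) and 35.2, 36.1 and 32.2 CPM (8°C). Cold wild-type libraries were far above all others, and the cold HY/HY libraries were above both thermoneutral groups. The log2 fold change was 2.13 ± 0.17 (adjusted p = 1.83e-05) in wild-type mice and 0.49 ± 0.16 (adjusted p = 0.211) in HY/HY mice, the difference between the genotypes at 8°C -1.19 ± 0.16 (adjusted p = 0.00229), and the interaction -1.65 ± 0.23 (adjusted p = 0.00984).

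The related subunit *Apool* stood at 24.5, 21.7 and 32.9 CPM in thermoneutral and 54.6, 58.5 and 60.5 CPM in cold wild-type mice, and at 23.5, 20.5 and 42.5 CPM (30°C) and 32.9, 35.4 and 42.9 CPM (8°C) in HY/HY mice, where the temperatures overlapped. Its log2 fold change in wild-type mice was 1.14 ± 0.24 (adjusted p = 0.00663). Within a library the ratio of *Apoo* to *Apool* was 0.620 to 0.781 in thermoneutral and 1.20 to 1.43 in cold wild-type mice, and 0.670 to 1.30 over the 6 HY/HY libraries. *Chchd3* and *Chchd6* encode a further pair of related MICOS subunits. *Chchd3* stood at 98.5, 90.5 and 144 CPM in thermoneutral and 321, 317 and 366 CPM in cold wild-type mice, and at 98.9, 127 and 145 CPM (30°C) and 154, 179 and 157 CPM (8°C) in HY/HY mice. *Chchd6* stood at 27.6, 23.6 and 37.7 CPM (30°C) and 38.3, 42.2 and 40.99 CPM (8°C) in wild-type mice and at 29.95, 36.4 and 42.00 CPM (30°C) and 40.7, 34.2 and 46.5 CPM (8°C) in HY/HY mice. *Chchd3* separated cold wild-type mice from all other libraries, while *Chchd6* just separated the temperatures in wild-type mice and overlapped in HY/HY mice. Their log2 fold changes in wild-type mice were 1.59 ± 0.19 (adjusted p = 0.000163) and 0.45 ± 0.18 (adjusted p = 0.0842). Their ratio within a library was 3.57 to 3.84 in thermoneutral and 7.51 to 8.92 in cold wild-type mice, and 3.30 to 3.48 and 3.38 to 5.25 in HY/HY mice.

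*Immt*, the core of MICOS, rose by 1.39 in wild-type mice (adjusted p = 0.000285), and *Samm50*, the SAM channel, by 1.31 (adjusted p = 0.000627). At 8°C *Samm50* was lower in HY/HY mice (-0.89 ± 0.19 (adjusted p = 0.0159)), and *Immt* did not pass the test (-0.47 ± 0.18 (adjusted p = 0.132)). The metaxins are partners of SAM. *Mtx2* stood at 36.2, 36.3 and 45.7 CPM in thermoneutral and 95.9, 112 and 125 CPM in cold wild-type mice, and at 35.8, 44.1 and 60.5 CPM (30°C) and 66.4, 66.8 and 73.1 CPM (8°C) in HY/HY mice. *Mtx1* stood at 31.2, 33.05 and 37.9 CPM (30°C) and 47.6, 49.03 and 55.4 CPM (8°C) in wild-type mice and at 30.3, 33.3 and 35.2 CPM (30°C) and 32.4, 39.4 and 32.8 CPM (8°C) in HY/HY mice. *Mtx2* was higher in every cold library of either genotype, whereas *Mtx1* separated the temperatures in wild-type mice and overlapped in HY/HY mice. On the log2 scale their changes in wild-type mice were 1.49 ± 0.18 (adjusted p = 0.000169) and 0.57 ± 0.12 (adjusted p = 0.00468), the latter under 1.5-fold. The members of a pair were not tested against each other here.

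Among 32 further genes of the same pathways, 20 were called higher by cold in wild-type mice, 1 in HY/HY mice, 7 lower in HY/HY mice at 8°C and 7 in the interaction. In wild-type mice 0 were called lower by cold, and 2 had a log2 fold change below 0. These were *Tomm34* (-0.48, adjusted p = 0.00649, under 1.5-fold) and *Hscb* (-0.28, adjusted p = 0.17). All 8 further cristae genes rose in wild-type mice (median 1.17), 5 were lower in HY/HY mice at 8°C, and the same number was called in the interaction. The largest rise was that of *Chchd10*, a relative of MICOS subunits, which stood at 88.8, 78.7 and 149 CPM in thermoneutral and 692, 851 and 903 CPM in cold wild-type mice, and at 89.1, 209 and 135 CPM (30°C) and 236, 311 and 142 CPM (8°C) in HY/HY mice. Cold wild-type mice lay above all other libraries. The log2 fold change was 2.95 ± 0.37 (adjusted p = 0.00024) in wild-type mice and the interaction -2.28 ± 0.49 (adjusted p = 0.0372). *Letm1*, an inner membrane ion exchanger, was the 1 gene of this list called in HY/HY mice, with 1.05 ± 0.16 (adjusted p = 0.0246) against 2.66 ± 0.17 (adjusted p = 1.21e-05) in wild-type mice. The MICOS subunits *Micos10* and *Micos13* rose by 1.61 and 1.19 in wild-type mice and had interactions of -1.09 ± 0.18 (adjusted p = 0.0135) and -0.87 ± 0.18 (adjusted p = 0.0324). Among the processing peptidases 3 of 4 rose in wild-type mice, led by *Immp2l* (1.33), and among other import genes 5 of 11, led by the outer membrane insertase *Mtch2* (1.58). *Immp2l*, a subunit of the inner membrane peptidase, stood at 11.97, 12.7 and 20.6 CPM in thermoneutral and 35.8, 40.1 and 37.6 CPM in cold wild-type mice, and at 18.1, 16.3 and 18.8 CPM (30°C) and 15.99, 20.9 and 19.4 CPM (8°C) in HY/HY mice. *Mtch2* stood at 178, 199 and 265 CPM in thermoneutral and 629, 635 and 653 CPM in cold wild-type mice, and at 205, 258 and 328 CPM (30°C) and 382, 417 and 444 CPM (8°C) in HY/HY mice. Both separated cold wild-type mice from all other libraries, and in HY/HY mice the temperatures overlapped for *Immp2l* and did not for *Mtch2*. Further proteases and their partners gave 3 of 7, led by *Stoml2* (0.82), and of 2 further chaperones *Dnaja3* rose (1.43). *Stoml2*, a partner of inner membrane proteases, stood at 47.3, 45.97 and 55.01 CPM in thermoneutral and 81.97, 89.8 and 90.8 CPM in cold wild-type mice, and at 45.3, 52.6 and 53.6 CPM (30°C) and 63.97, 57.5 and 60.9 CPM (8°C) in HY/HY mice. *Dnaja3*, a J protein of the matrix, stood at 78.00, 69.6 and 85.9 CPM in thermoneutral and 185, 206 and 239 CPM in cold wild-type mice, and at 65.9, 77.1 and 101 CPM (30°C) and 104, 119 and 118 CPM (8°C) in HY/HY mice. For both, the cold libraries lay above the thermoneutral ones in either genotype, highest in wild-type mice.

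Of 4 regulators of the response to mitochondrial and unfolded protein stress, 1 was called. *Atf5*, a transcription factor linked to chaperone and protease genes, stood at 102, 157 and 125 CPM in thermoneutral and 328, 343 and 292 CPM in cold wild-type mice, and at 137, 337 and 153 CPM (30°C) and 173, 149 and 128 CPM (8°C) in HY/HY mice. Replicate 2 of the thermoneutral HY/HY mice was as high as the cold wild-type mice, and the other libraries lay below. The log2 fold change was 1.32 ± 0.30 (adjusted p = 0.00816) in wild-type mice and -0.48 ± 0.29 (adjusted p = 0.476) in HY/HY mice, and the interaction -1.80 ± 0.42 (adjusted p = 0.0461). At 8°C *Atf5* was called lower in HY/HY mice, with a difference of -1.10 ± 0.29 (adjusted p = 0.0439). *Atf4*, *Ddit3* and *Hsf1* were not called in wild-type mice (-0.04, 0.43 and -0.36, with adjusted p of 0.906, 0.0904 and 0.0865).

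Set beside other nuclear genes for mitochondria, the members' median response to cold in wild-type mice lay between that of complex I and that of the mitochondrial ribosome. Complex I subunits were picked by symbol alone (*Ndufa*, *Ndufb*, *Ndufc*, *Ndufs* or *Ndufv* and a number). Letters after the number were allowed, so the list may hold genes that do not encode a subunit. Of these 36 genes, 34 rose with cold in wild-type mice (median 1.47) and 32 were lower in HY/HY mice at 8°C (median -0.99). The interaction was called in 22 (median -1.14). In HY/HY mice 1 of the 36 was called lower by cold, and whether it encodes a subunit was not checked. The lowest log2 fold change was -0.92, where the lower quartile of the list was 0.22. Of 74 mitochondrial ribosomal proteins 50 rose (median 0.75), 22 were lower at 8°C (median -0.49) and 18 were called in the interaction (median -0.55). Per library, the median of the 46 members relative to thermoneutral wild-type mice was 0.91 to 0.99 in cold wild-type mice and 0.44 to 0.54 in cold HY/HY mice, and -0.13 to 0.37 in thermoneutral HY/HY mice. For complex I the same medians were 1.43 to 1.51, 0.38 to 0.52 and -0.03 to 0.36. In cold HY/HY mice the medians of members and complex I thus lay close together, while in cold wild-type mice complex I stood higher. These are descriptions over genes, and the lists were not tested against each other.

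**Figure D5:**
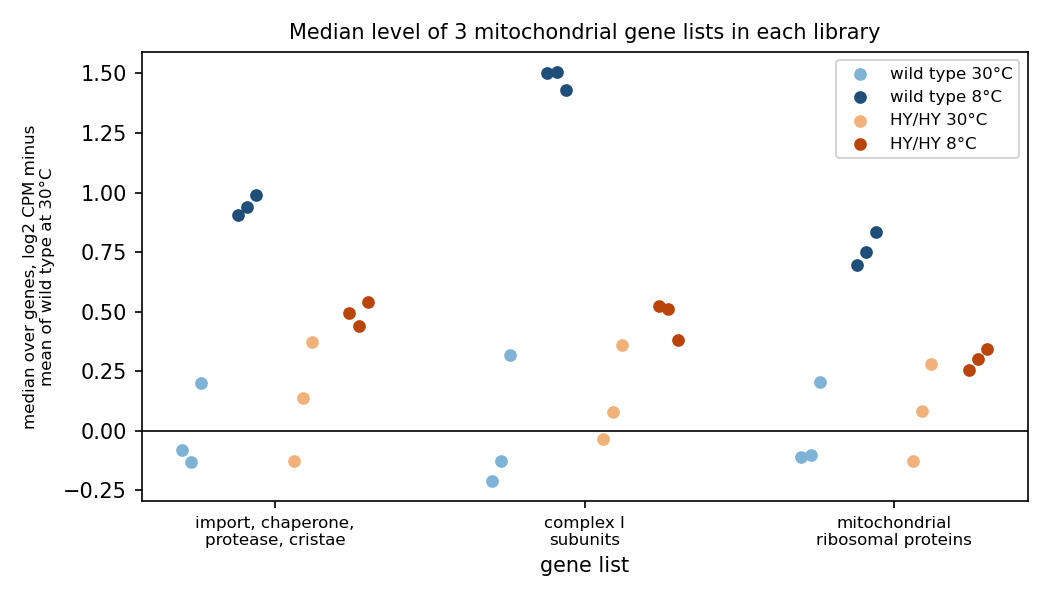
Median over genes of log2 CPM minus the mean of wild-type mice at 30°C, for the 46 members, 36 complex I subunits (by symbol) and 74 mitochondrial ribosomal proteins, with 1 point per library. Cold wild-type libraries are highest for each list, and the 3 lists differ more in cold wild-type mice than in cold HY/HY mice.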

How the data were processed

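RNA-seq was run on scWAT of 12 mice, 3 in each of 4 groups. The authors trimmed paired reads with fastp, used STAR with mm10, and deposited raw counts per gene of GENCODE M25, by strand and over both strands. Sense-strand counts were used here. Of the 31873975 to 61065333 read pairs per library, 36.5% to 44.2% were counted. The 4 lines that name no gene (unaligned, several places, outside genes, several genes) held 25.1% to 28.8%, 26.7% to 32.2%, 1.99% to 3.20% and 0.930% to 1.10% of pairs and were left out of library sizes and tests. Genes with near-identical copies are undercounted, since pairs with several alignments were dropped. Symbols came from RefSeq and GENCODE tables, and 2 members were matched by a synonym.

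Genes were kept by filterByExpr of edgeR 4.0.16 in R 4.3.3 (16540 genes). The quasi-likelihood fit had a mean for each group, used all 12 libraries and TMM scaling, and had 8 residual degrees of freedom and a biological coefficient of variation of 20.7%. TMM factors were 0.859 to 1.17. P-values are two-sided and adjusted over all genes by the method of Benjamini and Hochberg. CPM are counts over library size times TMM factor. Levels per kilobase use exon lengths of an older annotation (GENCODE M1) than the counts do. Promoters are RefSeq windows of GRCm38.p6. Alternatives were DESeq2 1.42.0, library totals in place of TMM, mitochondrial DNA genes left out of library sizes, other filters and fold limits, both strands together, the replicate number as a block, only the libraries of a comparison, and each library left out in turn. The marker lists and the members were chosen with earlier results of these data known. Values per library are given for the genes at either end of each functional class by cold response in wild-type mice, for 7 pairs of related or partner genes, for every member called in the interaction, and for the gene with the largest change of each list of related genes.

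Libraries of a group differed beyond sampling noise, with a chi-square per degree of freedom of 10.8 to 176, so none was counted as a repeat. Whether equal replicate numbers pair the mice was checked by correlating their deviations from the group means. The 18 correlations ran from -0.0695 to 0.346. All 3 passed 0.1 for the thermoneutral and cold HY/HY mice only (0.112, 0.199 and 0.303), so the blocked result is given there. The labels state no pairing.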

Additional observations from a re-analysis of the deposited data

Results flagged for a closer look

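The 11 members below are those for which the cold response differed between the genotypes by the interaction test. The interaction, HY/HY minus wild type on the log2 scale, was -0.95 for *Tomm5*, -1.30 for *Timm8a1*, -0.88 for *Timm8b*, -0.89 for *Timm9*, -1.04 for *Timm17a* and -0.85 for *Grpel1*. It was -1.05 for *Hspa9*, -0.63 for *Clpx*, -1.07 for *Phb*, -1.19 for *Chchd3* and -1.65 for *Apoo*. With 3 mice per group no library was tested as an outlier. In all 11 the fitted fold change of HY/HY mice was above 0 on the log2 scale. That it was smaller than that of wild-type mice follows from an interaction below 0.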

How the results depend on the processing

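Every called member kept its direction in all 20 alternatives (19 for the interaction). Counting each called member once per alternative, 669 of 680 calls by cold in wild-type mice, 352 of 440 between the genotypes at 8°C and 109 of 209 in the interaction stayed past the threshold. In all alternatives 25 of 34, 8 of 22 and 1 of 11 genes kept their calls. With library totals in place of TMM, which moved the median of all genes by cold in wild-type mice from -0.07 to -0.41, the median of the members was 0.62 by cold in wild-type mice and -0.48 in the interaction, 11 members were lower in HY/HY mice at 8°C and 6 were called in the interaction. With a fold limit of 2, 21 members rose in wild-type mice, 3 were lower in HY/HY mice at 8°C and 6 were called in the interaction. DESeq2 found 5 members raised by cold in HY/HY mice and 24 in the interaction, and without a filter on low counts 1 was called higher in HY/HY mice. With the replicate number as a block, 1 was called higher by cold in HY/HY mice, 35 in wild-type mice, 22 were lower at 8°C and 15 were called in the interaction. Leaving out each library in turn gave medians of 0.88 to 1.11 and counts of 33 to 40 higher by cold in wild-type mice, 0 to 9 higher in HY/HY mice, 8 to 22 lower at 8°C, 0 to 2 higher at 30°C and 1 to 20 in the interaction. The cause of these differences was not tested. Each group had 3 mice, and the members had 82 to 19935 counts per gene and library.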
